A study of Mus musculus with 10 samples.

Results

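The insulin-like growth factor (IGF) axis was followed in gastrocnemius muscle (GAS) through 10 genes, chosen by symbol among the 21160 genes of the count table. The genes code for the growth factors (Igf1, Igf2), their receptors (Igf1r, Igf2r), 5 IGF-binding proteins (Igfbp3, Igfbp4, Igfbp5, Igfbp6, Igfbp7) and the RNA-binding protein Igf2bp2. The mice were wild-type males, C57BL/6J in the labels and the substrain C57BL/6JBomTac in the methods of the study, fed a high-fat diet from 9 weeks of age for 9 weeks (diet-induced obesity, DIO). They stayed on this diet and received subcutaneous injections once weekly for 14 weeks, with saline in the control group (CTRL, n = 5) or with the anti-miR-22 antisense oligonucleotide (anti-miR-22 ASO, RES-010 in the labels) at 10 mg/kg (n = 5), and GAS was taken at the end of treatment, at an age given as 30 weeks, which is less than the stated start and durations add up to. Poly(A) RNA was sequenced in 1 library per mouse, and all mice were on the high-fat diet. No lean mice and no mice given a control oligonucleotide are among the samples, so the effect of an oligonucleotide as such and that of miR-22 inhibition cannot be told apart. The groups also differed in body weight before the first injection. In the weights listed with the study, most CTRL mice were then lighter than every ASO mouse. Some CTRL mice were below the weight that the labels give as passed by all mice. Listed weights are not tied to single libraries, and the part of starting weight in the differences between groups was not tested.

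IGF1 and IGF2 are secreted peptides that act through the receptor tyrosine kinase Igf1r, and in muscle this pathway is best known for promoting fiber growth and satellite cell differentiation. The mannose 6-phosphate receptor Igf2r carries IGF2 to lysosomes, and the binding proteins hold the peptides in blood and matrix until proteases release them. Igf2bp2 is not a binding protein of the peptide but binds messenger RNAs, that of Igf2 among them.

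The oligonucleotide is directed against miR-22, so the sequence of the mature miRNA and its matches in the 3′UTRs of the IGF genes are shown first. Mature miR-22 itself is not counted in poly(A) libraries. The miRNA (RefSeq, GRCm38.p6) is printed with its seed, bases 2 to 8, in capitals.
miR-22-3p: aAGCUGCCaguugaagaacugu
The match to this seed is GGCAGCT, searched on the sense strand of every gene's longest 3′UTR (GENCODE M39, GRCm39). Of 20960 genes with a 3′UTR, 16.7% hold it, and of the 10 IGF genes Igfbp5 and Igfbp7 do, each once. These are the stretches around the matches, with the match in capitals.
Igfbp5, chr1:72898068-72898097, minus strand: catcccaggcagGGCAGCTgtccttctgct
Igfbp7, chr5:77497004-77497033, minus strand: ccatgaacttctGGCAGCTaaacactcatc
The match in Igfbp5 starts at base 3451 of a 3′UTR of 4445 bases and is followed by G. The match in Igfbp7 starts at base 306 of a 3′UTR of 4197 bases and is followed by A. Both lie outside the segments on which reads were counted. The 3′UTRs of Igf1, Igf2, Igf1r, Igf2r, Igfbp3, Igfbp4, Igfbp6 and Igf2bp2 hold no such match.

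Reads had been counted by the authors as read pairs on the last 500 bp of 3′UTRs, so a gene has a count for each annotated 3′ end. The stretch counted for such an end is called a segment here, and counts were added up over a gene's segments. Library totals were between 1606909 and 2632560 counts, and every ASO library was deeper than every CTRL library. Levels are given as CPM, counts relative to the library size scaled by TMM, with SDs over 5 libraries. Genes were tested with edgeR's quasi-likelihood test across all 7819 genes past the filter on low counts, and a gene is called at an adjusted p-value below 0.05. In this comparison 29.2% of the tested genes were called, 11.7% higher and 17.5% lower with the ASO, and the groups of 5 libraries did not overlap for 21.4%. The place of a segment went with the direction of its change. When each segment was tested on its own, a fit chosen after seeing the data, 40.6% of 10658 segments were called. Of segments at least 1000 bp upstream of the most distal segment of their gene, 53.7% were lower and 5.43% higher, with a median log2 fold change of -0.86. Of the most distal segments, 4.38% were lower and 25.1% higher, with a median of 0.30. The share of this pattern in the values of single genes was not tested, and the place of the counted segment is given with them.

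Of the 10 IGF genes, 8 passed the filter, and of these 1 was higher (Igf2r), 1 was lower (Igfbp4) and 6 were not called. Those 2 of 8 stand beside the 29.2% of all tested genes, and the same 2 were the genes whose groups did not overlap. The median log2 fold change of the 8 genes was 0.15, against -0.03 for all tested genes. CTRL 3 and ASO 4 held 6 and 5 of the 15 values flagged as far from their group, as described further below. With this pair left out, a choice made after seeing the data, 7 IGF genes were tested. Of these, none was higher and 2 were lower (Igfbp4 and Igfbp6). Igf2 and Igfbp7 did not pass the filter. The IGF genes held 25530 counts over the 10 libraries, of which Igfbp5 took 67.6%, Igfbp6 11.2% and Igf2r 8.77%.

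**Figure D1:**
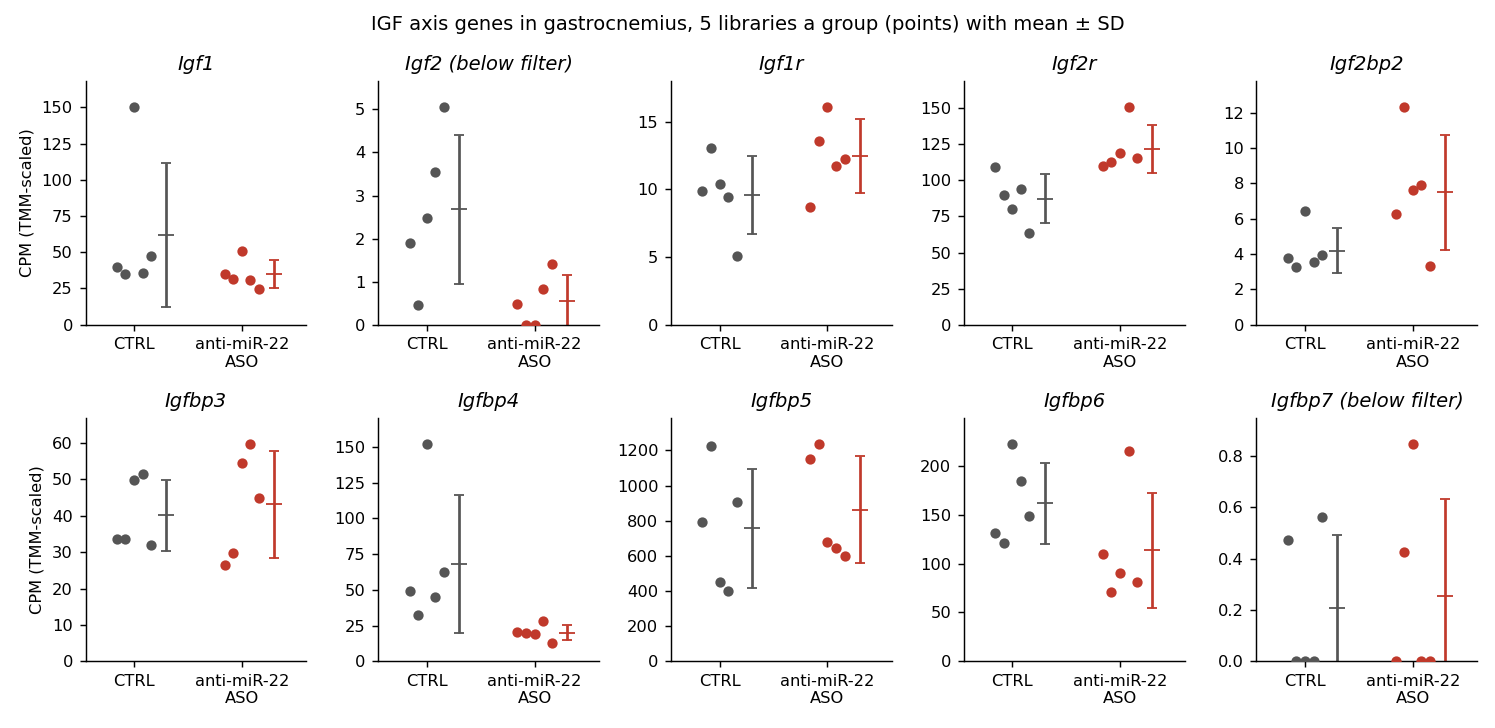
Level of each of the 10 IGF genes in CPM (y axis, TMM-scaled, starting at 0) in the 5 CTRL libraries (grey) and the 5 anti-miR-22 ASO libraries (red), in replicate order from left to right, with the mean and SD beside them. The groups do not overlap for Igfbp4 and Igf2r, and a single CTRL library, at 150.2 CPM for Igf1 and 152 CPM for Igfbp4, stands above all others in both panels.

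Among the growth factors, Igf1 was at 40.1, 35.0, 150.2, 36.0 and 47.2 CPM in CTRL 1 to 5 and at 35.2, 31.9, 50.7, 30.9 and 24.99 CPM in ASO 1 to 5. CTRL 3 was far above the other 9 libraries, whose groups overlapped. Mean levels were 61.7 ± 49.7 CPM in CTRL and 34.7 ± 9.68 CPM with the ASO, and the log2 fold change of -0.83 ± 0.40 (SE) was not past the threshold (adjusted p = 0.13). An exact permutation test over the 252 labellings of the libraries gave an unadjusted p = 0.159. Without CTRL 3 the log2 fold change was -0.19, and with ASO 4 left out as well it was -0.12.

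The summed Igf1 counts came from several segments that did not move alike. The longest annotated 3′UTR of Igf1 has 6342 bases, so reads of a long transcript can also fall on upstream segments within it. Which 3′ end a read came from cannot be told from these counts. The most distal segment, the last 500 bp of the gene on chromosome 10 (chr10:87772405-87772904, plus strand, GRCm39), held 51.9% of them. A full-length segment 5241 bp upstream held 20.2%, and a short segment of 177 bp, 6165 bp upstream, held 24.6%.

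On the segment 5241 bp upstream, CTRL 1 to 5 were at 7.07, 6.99, 41.5, 7.67 and 16.3 CPM and ASO 1 to 5 at 6.28, 2.97, 4.65, 4.17 and 2.83 CPM. All ASO libraries were below all CTRL libraries, but only by 6.28 against 6.99 CPM where they came closest. CTRL 3 held 84 counts here, against 13 to 29 in the other CTRL libraries and 6 to 13 in the ASO libraries. The segment belongs to the class of which 53.7% were lower, with a median of -0.86. Its log2 fold change of -1.88 ± 0.53 was past the threshold in the fit over all segments (adjusted p = 0.012). On the most distal segment the change was -0.78 ± 0.38 (adjusted p = 0.12), and on the short segment it was -0.14 ± 0.55 (adjusted p = 0.85).

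The share of the Igf1 counts on the segment 5241 bp upstream was 24.2% ± 6.84 in CTRL and 12.2% ± 3.58 with the ASO, and in an exact permutation test the difference had p = 0.0159. The share on the most distal segment was 53.5% ± 12.3 in CTRL and 52.6% ± 7.70 with the ASO (exact permutation p = 0.897). Taken over the 2 full-length segments alone, the distal segment held 68.4% ± 9.60 in CTRL and 81.0% ± 6.30 with the ASO (exact permutation p = 0.0397). Adjusted over these 3 comparisons, the p-values of the exact permutation tests were 0.0477, 0.897 and 0.0595 in this order. The 3 comparisons reuse the same counts and are not independent. The last of them leaves out the short segment 6165 bp upstream, which held 122 counts in CTRL and 125 with the ASO. A segment 21148 bp upstream had 1 count in the 5 CTRL libraries together and 12 in the 5 ASO libraries.

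**Figure D2:**
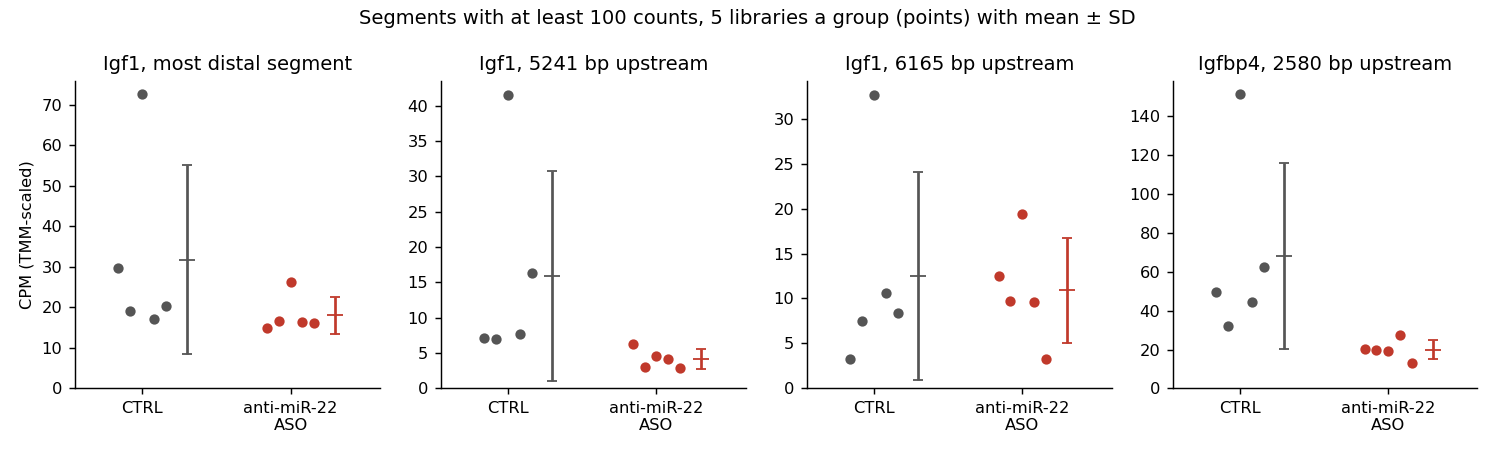
CPM (y axis, starting at 0) on the 4 segments of Igf1 and Igfbp4 that hold at least 100 counts, by library (points), with mean and SD for CTRL (grey) and the anti-miR-22 ASO (red). The groups do not overlap on the Igf1 segment 5241 bp upstream and on the Igfbp4 segment 2580 bp upstream, whereas they overlap on the other Igf1 segments.

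Igf2, the fetal growth factor, had 4, 1, 5, 6 and 9 counts in CTRL 1 to 5 and 1, 0, 0, 2 and 3 counts in ASO 1 to 5. The ASO libraries were low although they were deeper, and the groups overlapped. All 31 counts lay on a segment of 60 bp (chr7:142207493-142207552, minus strand), 2990 bp upstream of the most distal one. Of tested segments at least 1000 bp upstream, 53.7% were lower, with a median of -0.86. The 3 other annotated ends share nearly all of their bases with each other and with another gene, Gm49394, which leaves 63 countable bases for the whole gene. The ratio of summed counts per depth, ASO over CTRL, was 0.206, with a 95% interval of 0.0692 to 0.515 (exact binomial) that covers counting error only. An exact permutation test over libraries gave an unadjusted p = 0.0397. In the fit without the filter, the log2 fold change of Igf2 was -2.15 ± 0.83 and did not pass the threshold (adjusted p = 0.096).

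Igf1r, the receptor tyrosine kinase for both peptides, was at 9.90, 13.1, 10.4, 9.44 and 5.05 CPM in CTRL and at 8.69, 13.6, 16.1, 11.7 and 12.3 CPM with the ASO. The groups overlapped over most of their range. The log2 fold change was 0.37 ± 0.27 (adjusted p = 0.32), on the most distal segment, the last 500 bp of the gene, and 237 counts in all.

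Igf2r was higher with the ASO. CTRL 1 to 5 were at 109.4, 89.5, 80.0, 93.8 and 63.4 CPM and ASO 1 to 5 at 109.6, 113, 119, 151 and 116 CPM. The groups did not overlap, but CTRL 1 and ASO 1 were at almost the same level, and ASO 4 was the highest library. Means were 87.2 ± 17.0 CPM in CTRL and 121.6 ± 16.6 CPM with the ASO, and the log2 fold change of 0.48 ± 0.16 was past the threshold (adjusted p = 0.038). The exact permutation test gave p = 0.00794, the smallest that 252 labellings allow. All of its reads lay on the most distal segment (chr17:12901293-12901792, minus strand), the class of segments with a median log2 fold change of 0.30. The call was lost when libraries were scaled by their total counts (0.31, adjusted p = 0.19). It was also lost when any of CTRL 2, 3, 4 or 5 (0.49, 0.45, 0.50 and 0.38) or ASO 3, 4 or 5 (0.52, 0.41 and 0.51) was left out.

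Igf2bp2, which binds Igf2 messenger RNA among others, was at 3.77, 3.26, 6.42, 3.54 and 3.93 CPM in CTRL and at 6.28, 12.3, 7.61, 7.93 and 3.30 CPM with the ASO. Of the ASO libraries, 3 were above all CTRL libraries, ASO 1 was just below the highest of them, and ASO 5 was nearly as low as the lowest of them. The log2 fold change of 0.83 ± 0.35 rests on 127 counts, 46.5% of them on the most distal segment and 53.5% on one 451 bp upstream, and was not past the threshold (adjusted p = 0.092). Without ASO 5 it was 1.03 and past the threshold (adjusted p = 0.041).

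Among the binding proteins, Igfbp4, which binds IGFs and keeps them from the receptor until the protease PAPP-A cuts it, was lower with the ASO. CTRL 1 to 5 were at 49.5, 32.2, 152, 44.8 and 62.3 CPM and ASO 1 to 5 at 20.8, 19.5, 19.5, 27.97 and 13.2 CPM. Every ASO library was below every CTRL library, with CTRL 3 far above the rest. Means were 68.2 ± 48.1 CPM and 20.2 ± 5.26 CPM, and the log2 fold change was -1.75 ± 0.38 (adjusted p = 0.0052). The exact permutation test gave p = 0.00794, the smallest possible here. Without CTRL 3 the log2 fold change was -1.22, still past the threshold, and with CTRL 3 and ASO 4 both left out it was -1.34.

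Of the 899 Igfbp4 counts, 99.4% lay on a segment of 233 bp (chr11:98942406-98942638, plus strand), 2580 bp upstream of the end of the gene. That segment belongs to the class of which 53.7% were lower, with a median of -0.86, and on its own it had a log2 fold change of -1.72 ± 0.38 (adjusted p = 0.0032). The last 500 bp of the gene held 5 counts, 3 in CTRL and 2 with the ASO. A fit on most distal segments therefore gives no value for Igfbp4.

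Markers of other cell types moved with Igf1 and Igfbp4 in CTRL 3. The counts that follow stand beside the 17.5% lower and 11.7% higher of all tested genes. Of the macrophage list, 3 of 8 tested genes were lower and none higher. Its summed level was 304 to 1872 CPM in CTRL, highest in CTRL 3, and 80.2 to 623 CPM with the ASO, and its markers Adgre1 and Cd163 were at 0 counts on 4 and 0 countable bases, which is no measure of their expression. Of the adipocyte list, none of 6 tested genes was called by edgeR (1 at an unadjusted p below 0.05), and its summed level was 846 to 13740 CPM in CTRL, again highest in CTRL 3, and 720.5 to 3758 CPM with the ASO. Of the fibroblast list, 2 of 6 tested genes were lower and none higher, with sums of 332 to 612 CPM in CTRL and 103 to 625 CPM with the ASO, and Dcn and Ly6a at 0 counts on 0 and 1 countable bases, again no measure of expression. The muscle fiber list summed to 43691 to 82609 CPM in CTRL, lowest in CTRL 3. With the ASO it summed to 88644 to 135980 CPM, without overlap between the groups. The most abundant muscle fiber gene, Acta1, was at a mean of 39775 CPM in CTRL and 59125 CPM with the ASO. It was not called (adjusted p = 0.058), but its groups did not overlap. Of 5 tested fiber genes 3 were higher (Atp2a1, Ckm and Ttn), as were 2 of 5 satellite cell genes and 1 of 6 pericyte and smooth muscle genes. None of 8 endothelial, 3 tendon, 4 Schwann cell and 4 blood genes was called by edgeR (1, 0, 0 and 0 at an unadjusted p below 0.05). The part of these cell types in the values of Igf1 and Igfbp4 was not tested, and fewer cells of a type and less RNA per cell cannot be told apart in bulk muscle.

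Igfbp3, the main carrier of IGFs in blood, was at 33.5, 33.6, 49.9, 51.3 and 32.0 CPM in CTRL and at 26.6, 29.7, 54.5, 59.7 and 44.8 CPM with the ASO. The ASO libraries held both the lowest and the highest levels. Its most distal segment held 99.3% of its counts. The log2 fold change was 0.11 ± 0.25 (adjusted p = 0.77), and it was -0.08 when libraries were scaled by total counts.

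Igfbp5, the binding protein long tied to muscle differentiation, was at 795, 1226, 454, 398 and 908 CPM in CTRL and at 1150.0, 1237, 679.5, 644 and 602 CPM with the ASO. CTRL 3 and 4 were below all ASO libraries, and the other CTRL libraries lay within the range of the ASO libraries. The log2 fold change, on the most distal segment alone, was 0.19 ± 0.32 (adjusted p = 0.68). This is the tested IGF gene with a seed match in its 3′UTR, and its change was within the spread between libraries.

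Igfbp6, which prefers IGF2 over IGF1, was at 131, 121, 222, 185 and 148 CPM in CTRL and at 110.1, 70.9, 90.1, 215 and 81.6 CPM with the ASO. Of the ASO libraries, 4 were below all CTRL libraries, and ASO 4 was above 4 of them. All of its reads lay on the most distal segment. The log2 fold change of -0.51 ± 0.29 was not past the threshold (adjusted p = 0.21), whereas without ASO 4 it was -0.85 and past it (adjusted p = 0.011). In ASO 4 the summed level of the Schwann cell markers was 541 CPM, against 39.6 to 122 CPM in the other ASO libraries. The fibroblast markers summed to 625 CPM there, against 103 to 237 CPM. Their part in the level of Igfbp6 was not tested.

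Igfbp7, which binds IGFs with low affinity, could not be measured. Its annotated ends overlap each other and a neighboring gene and leave 0 countable bases, so its 5 counts, 2 in CTRL and 3 with the ASO, say nothing of its level, and its seed match could not be read against a change.

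**Figure D3:**
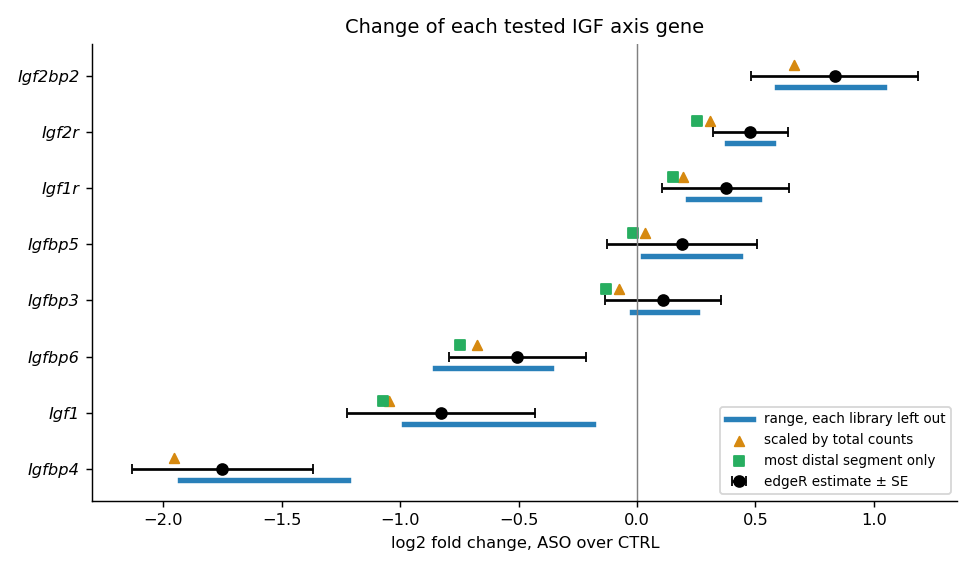
Log2 fold change, ASO over CTRL (x axis), of the 8 tested IGF genes, as the edgeR estimate with its SE (black), the range when each library is left out in turn (blue), the value with scaling by total counts (orange triangle) and the value on the most distal segment alone (green square, absent for Igfbp4 and Igf2bp2). Igfbp4 is at -1.22 or lower in all fits shown, and Igfbp3 and Igfbp5 have values on both sides of 0.

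Levels can be set beside each other where the most distal segment has its full 500 bp and shares no bases. In CTRL, Igfbp5 was the highest of these segments at 756 ± 341 CPM, followed by Igf2r at 87.2 ± 17.0, Igfbp3 at 39.7 ± 10.0, Igf1 at 31.8 ± 23.4, Igf1r at 9.57 ± 2.89 and Igfbp4, whose reads lay nearly all upstream, at 0.316 ± 0.454 CPM per 500 bp. Igfbp3 and Igf1 overlapped between libraries, and the other neighbors in this order did not. With the ASO the order was the same, at 862.5 ± 305, 121.6 ± 16.6, 42.9 ± 14.9, 18.01 ± 4.63, 12.5 ± 2.70 and 0.180 ± 0.248 CPM, but here Igf1 and Igf1r overlapped and Igfbp3 and Igf1 also did not differ beyond their libraries' ranges. For Igf1 and Igfbp4 this is 1 of several segments, and their levels summed over segments are higher.

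The IGF genes also varied against each other within groups. Deviations from the group means of log2(CPM + 1) were compared over the 10 libraries for the 28 pairs of tested genes. Igfbp3 and Igfbp5 moved in opposite directions (Pearson r = -0.857, exact permutation p = 0.0084, adjusted over the 28 pairs 0.13). The rank correlation within groups, Spearman rho, was -0.65 (exact permutation p = 0.0761, adjusted 0.533). Without the 2 libraries farthest from the median of Igfbp3, ASO 1 and ASO 4, r was -0.892. Igf1 and Igfbp4 moved together (r = 0.865, rho = 0.55, exact permutation p = 0.0241 and 0.145, adjusted 0.169 and 0.581). Without CTRL 3 and ASO 3 their r was 0.783, and without CTRL 3 alone it was 0.457. None of the 28 pairs passed the threshold after adjustment (5 had an unadjusted permutation p below it), and the libraries share their scaling.

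**Figure D4:**
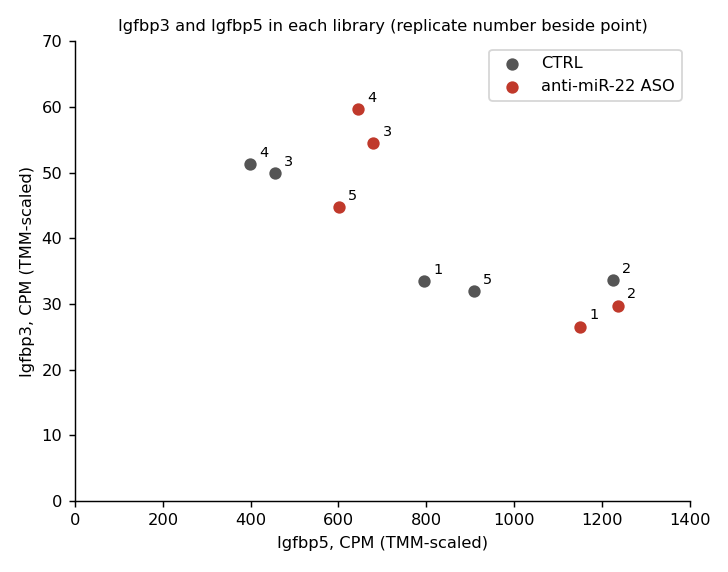
Igfbp3 (y axis) against Igfbp5 (x axis) in CPM in each library, CTRL in grey and anti-miR-22 ASO in red, with the replicate number beside the point. The 5 libraries with 44.8 CPM or more of Igfbp3 are those with 679.5 CPM or less of Igfbp5, and they come from both groups.

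The genes whose pattern was most like that of an IGF gene were sought among the 4599 tested genes whose mean was 50 counts or more, by Pearson r of the same deviations over 10 libraries, as a description. For Igfbp5 they were Crot (r = 0.90), Ap3s2 (0.88) and Them6 (0.88). For Igfbp6 they were Cygb, Fstl1 and Srebf2, each at r = 0.96, and for Igf2r they were Dazap2 (0.93), Slc41a1 (0.91) and Lclat1 (0.90). The highest of 4599 values over 10 libraries can be high by selection alone. ASO 4 stood apart for Igfbp6 and Igf2r, and r without that library was not computed.

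The other genes of the pathway were followed through 6 lists with 64 genes in the table, of which 36 were tested. Of these, 2 were higher and 9 lower with the ASO, a share of 30.6% beside the 29.2% of all tested genes, and their median log2 fold change was 0.01. A further 12 genes had 0 counts in all libraries, among them Stat5b, the main transcription factor between growth hormone and Igf1. It has 0 countable bases, so its 0 counts are no measure of its expression.

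Of 11 tested genes next to the receptors, 2 were higher and 4 lower (median 0.16). Ptpn1, the phosphatase that switches the insulin receptor off, rose from 34.6 ± 4.21 to 46.4 ± 3.51 CPM without overlap (log2 fold change 0.42 ± 0.13, adjusted p = 0.030). Insr, the insulin receptor, had levels of 82.5 to 132 CPM in CTRL and 116 to 158 CPM with the ASO (0.48 ± 0.16, adjusted p = 0.039). All Ptpn1 reads lay on the most distal segment and all Insr reads on a segment 28861 bp upstream. A fit on the most distal segment with counts therefore uses the same counts for both genes, with another scaling. Both calls were lost with scaling by total counts (Ptpn1 0.24, adjusted p = 0.24, and Insr 0.30, adjusted p = 0.14), without the filter on low counts (0.45, adjusted p = 0.055, and 0.50, adjusted p = 0.067) and in the fit on the most distal segment with counts (0.19, adjusted p = 0.40, and 0.25, adjusted p = 0.25). The receptor substrates Irs1 and Irs2 were not called, at 0.70 ± 0.30 (adjusted p = 0.093) and 0.71 ± 0.33 (adjusted p = 0.12), both on the most distal segment. Without ASO 4 the value of Irs2 was 0.29, and with CTRL 3 left out as well it was 0.23.

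Grb10, an adaptor that restrains Igf1r and insulin receptor signaling, was lower in all ASO libraries, at 3.76 to 8.69 CPM against 19.8 to 48.8 CPM (-2.43 ± 0.33, adjusted p = 0.00039). Nedd4, a ubiquitin ligase that works with Grb10 on Igf1r, was at 63.4 to 114 CPM against 312 to 528 CPM (-2.11 ± 0.20, adjusted p = 0.00011). The adaptors Shc1 (-1.09 ± 0.25, adjusted p = 0.0068) and Grb2 (-0.58 ± 0.16, adjusted p = 0.017), which pass the signal to Ras, were lower without overlap as well. All 4 were counted upstream of their most distal segment, by 2586 bp for Grb10, 1694 bp for Nedd4, 916 bp for Shc1 and 605 bp for Grb2.

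Of 10 tested genes of the PI3K and Akt list none was higher and 2 were lower (median 0.01). Pdpk1, the kinase that activates Akt, was at 21.7 to 46.3 CPM with the ASO against 71.8 to 124 CPM (-1.49 ± 0.21, adjusted p = 0.00051). Its most distal segment was lower too (-0.71 ± 0.24, adjusted p = 0.033), by less than the segment 2132 bp upstream (-2.42 ± 0.25). Akt2, the Akt form tied to glucose uptake, was lower when its segments were summed (-0.64 ± 0.20, adjusted p = 0.029). Its segments moved in opposite directions, since the segment 2656 bp upstream with 67.8% of the counts was lower (-1.18 ± 0.24) and the most distal segment was higher (1.03 ± 0.24, adjusted p = 0.0039).

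Of 6 tested genes between growth hormone and Igf1, 1 was lower and none higher (median 0.11). Ghr, the growth hormone receptor, was at 218 to 409 CPM with the ASO against 385 to 642 CPM (-0.66 ± 0.21, adjusted p = 0.030). Here too the segment 1249 bp upstream was lower (-2.03 ± 0.32), whereas the most distal one, with 71.9% of the counts, was at -0.15 ± 0.19 (adjusted p = 0.56).

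Of 5 tested proteases of binding proteins and their inhibitors, 2 were lower and none higher (median -0.44). Timp2, an inhibitor of matrix metalloproteases counted on its most distal segment alone, had levels of 124 to 254 CPM with the ASO against 204 to 483 CPM (-0.84 ± 0.26, adjusted p = 0.028). Mmp14, a membrane-bound metalloprotease, was at 16.03 to 64.7 CPM against 44.8 to 113 CPM (-1.06 ± 0.35, adjusted p = 0.038), with 88.5% of its counts 4099 bp upstream on a segment that was not called on its own (-0.81 ± 0.33, adjusted p = 0.069). Pappa, the protease of Igfbp4, had 1 count per library on average and was not tested. Of the 4 tested genes of the imprinted growth network Grb10 alone was called (median -0.08), and of the other IGF proteins only Igfals, the partner of Igfbp3 in blood, was tested (0.03 ± 0.44, adjusted p = 0.97).

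Several of these calls were near the threshold and were lost when 1 library was left out. Akt2 lost its call without any of ASO 1, 3, 4 or 5 or CTRL 4 or 5 (-0.61 to -0.52). Ghr lost it without ASO 3, 4 or 5 or CTRL 2 or 3 (-0.64 to -0.53), and Insr without ASO 2, 3 or 5 or CTRL 3, 4 or 5 (0.40 to 0.47). Mmp14 lost it without ASO 1, 2, 3 or 5 or CTRL 3, 4 or 5 (-1.11 to -0.79), and Timp2 without ASO 1, 2, 3 or 5 or CTRL 3 or 4 (-0.83 to -0.63). Ptpn1 lost it without CTRL 1, 2 or 4 (0.39 to 0.40) and Grb2 without ASO 4 or 5 (-0.54 to -0.51). Irs1 gained a call without ASO 4 (0.86) or CTRL 2 (0.97). Grb10, Nedd4, Pdpk1 and Shc1 were called whichever library was left out.

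**Figure D5:**
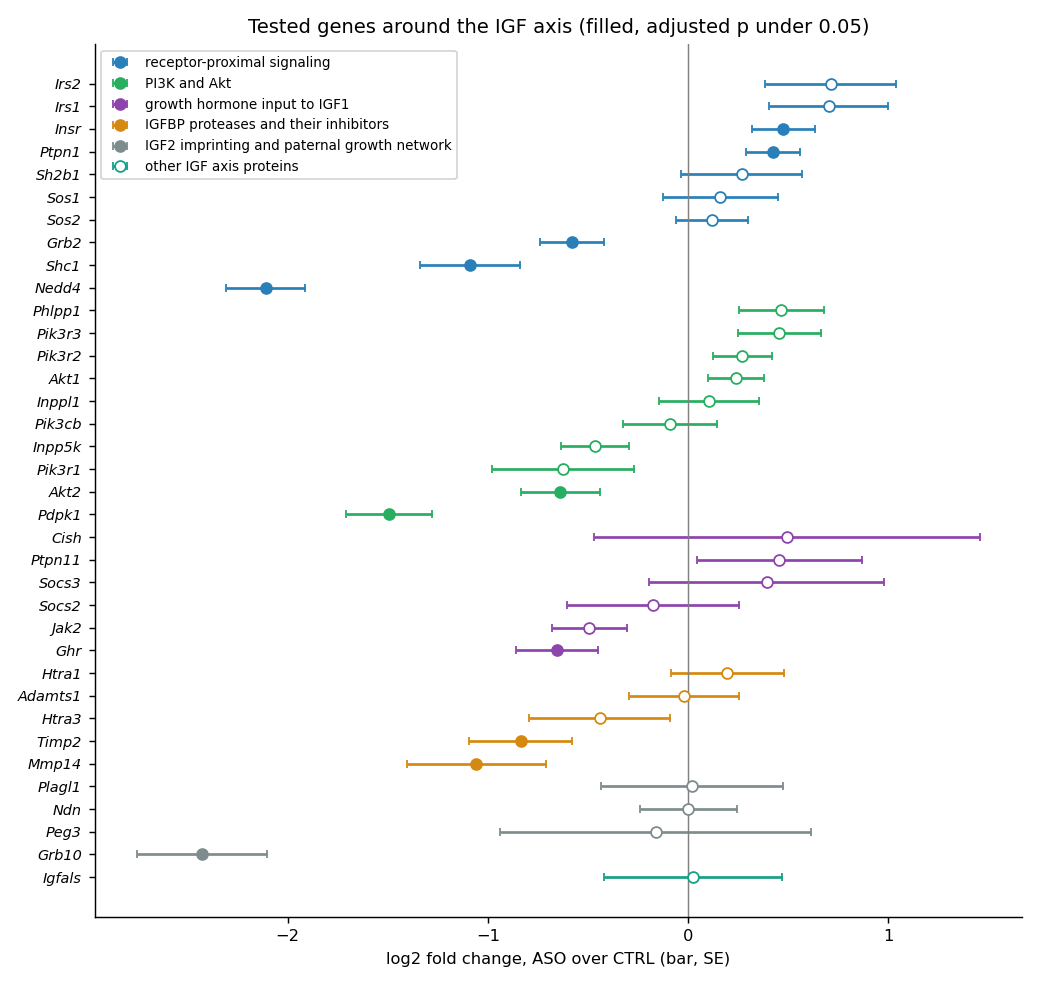
Log2 fold change, ASO over CTRL, with its SE (x axis) for the 36 tested genes of the 6 lists around the IGF axis, colored by list, with filled points for genes past the threshold. Grb10 (-2.43), drawn with the imprinted genes, and Nedd4 (-2.11) lie farthest to the left, and the 2 filled points on the right of 0 are Insr and Ptpn1.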

How the data were processed

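Bulk RNA sequencing of GAS from 5 CTRL and 5 ASO-treated DIO mice was used. The authors deposited a table of counts (read pairs per segment, not normalized), for which reads were trimmed (fastp), aligned (STAR, GRCm39) and counted (featureCounts of Subread, Gencode M25 exons) over the final 500 bp of 3′UTRs only. Their stated options name no strand setting, so antisense reads cannot be told apart. Read pairs on bases shared by segments were as a rule not assigned, with exceptions such as the 5 counts of Igfbp7. Bases that a segment shares with no other segment are called countable here. Another 4 columns of single samples were left out here. Of 52423 segments, 52361 were matched to genes with GENCODE M39, and the 62 others (0.0197% of the counts) stood as rows of their own. Segments were summed per gene.

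Groups came from the sample titles. The main test was that of edgeR 4.0.16 (R 4.3.3; TMM, filter on low counts by group, quasi-likelihood test, Benjamini-Hochberg adjustment over all tested genes, threshold 0.05). SEs are the absolute log2 fold change divided by the square root of F. Single values were compared with two-sided exact permutation tests of log2(CPM + 1) over 252 labellings, unadjusted for the 10 genes, and pairs of genes with 14400 within-group permutations. DESeq2 1.42.0 (also with ashr 2.2.63, as the authors used), limma-voom 3.58.1, other scalings and filters, a replicate block, most distal segments, libraries drawn down to 1606909 counts and leaving out libraries were alternatives. The test was checked on simulated counts with 200 changed genes and the same dispersion for every gene. The simulation held no outlying library and no effect of the place of a segment, so it does not cover these features of the data. Python 3.11.15 was used for the other steps.

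The 10 genes and the lists were chosen with earlier results of these data known. Named from the lists were up to 6 called genes of each, in order of adjusted p, and Insr, Irs1, Irs2, Ghr and Akt2, whatever their values, and 1 further gene of that rule is not reported here. Of marker lists the most abundant gene could be named, and genes at 0 counts named beside them were chosen after their values were seen. The labels do not say how the mice were housed or processed together, so p-values measure the spread between these libraries. With 1606909 to 2632560 counts per library, a level of 3 counts or less is near the limit of counting. The lists of muscle fiber, fibroblast, endothelial, pericyte and smooth muscle, macrophage, adipocyte, satellite cell, tendon, Schwann cell and blood markers served as a check of the tissue.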

Additional observations from a re-analysis of the deposited data

Results flagged for a closer look

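In each group of 5 libraries, a value was set apart when its gap to the nearest other library took more than 0.71 of the range of the group. This was done for 62 groups (IGF genes, named pathway genes and summed marker lists), and 15 values were set apart. CTRL 3 gave 6 of them and ASO 4 gave 5. The cutoff sets apart about 1 in 20 groups when values are normally distributed and groups are independent. CPM need not be normally distributed and the groups share libraries, so the 15 values cannot be read against that rate.

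CTRL 3 stood high for Igf1 (150.2 CPM, next library 47.2), Igfbp4 (152 CPM, next 62.3), Igf2bp2 (6.42 CPM, next 3.93) and Mmp14 (113 CPM, next 62.5). It also stood high for the summed macrophage markers (1872 CPM, next 710.4) and the summed adipocyte markers (13740 CPM, next 2382). Igf1 and Igfbp4 without this library are given with their values.

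ASO 4 stood high for Igf2r (151 CPM, next 119), Igfbp6 (215 CPM, next 110.1) and Irs2 (274 CPM, next 122), and for the summed fibroblast (625 CPM, next 237) and Schwann cell markers (541 CPM, next 122).

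Akt2 was high in ASO 2 (124 CPM, next 75.8) and Grb2 low in CTRL 1 (99.98 CPM, next 119). In CTRL 1 the summed pericyte and smooth muscle markers (1220 CPM, next 751) and satellite cell markers (274 CPM, next 188) were high.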

How the results depend on the processing

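Igfbp4 was lower and past the threshold in all 12 alternatives that gave it a value (log2 fold change -1.95 to -1.34) and when each library was left out (-1.93 to -1.22). Igf2r kept its direction but not its call with scaling by total counts (0.31), without the filter on low counts (0.50), on most distal segments (0.25), with libraries drawn down (0.47) and without CTRL 3 and ASO 4 together (0.38, an alternative chosen after seeing the data), and ranged from 0.38 to 0.58 when each library was left out. Its counts are the same on most distal segments, where the scaling differs. Igfbp3 turned to -0.078 with total counts and to -0.13 on most distal segments, and ranged from -0.021 (without ASO 4) to 0.25 over libraries left out. Igfbp5 turned to -0.017 on most distal segments, where its counts are the same as well and the scaling differs. Akt2, with 20.9% of its counts on the most distal segment, turned to 0.76 there. Igfbp6 gained a call without CTRL 3 and ASO 4 together (-0.70) and ranged from -0.85 to -0.36 over libraries left out, and Igf2bp2 ranged from 0.59 to 1.04. Other than by construction (fewer genes, segments or samples), the cause of these shifts was not tested. In DESeq2, limma-voom, RLE and upper quartile scaling, the filter at 10 counts and without the 20 highest genes, no IGF gene that was tested changed its call or direction.

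The number of IGF genes called was 1 with total counts, without the filter, with libraries drawn down and with the replicate block, 0 on most distal segments (edgeR, 2 at an unadjusted p below 0.05), and 1 to 2 over libraries left out. In the first 4 of these settings 0 were higher. Without CTRL 3 and ASO 4 together 0 were higher and 2 lower, and over libraries left out 0 to 1 were higher and 1 to 2 lower. On most distal segments 0 were lower, since Igfbp4 was not tested there. Of all genes, 992 were called on most distal segments (388 higher, 604 lower). With total counts 528 were higher, 22.5% of all calls against 40.2%, and the median over all genes shifted from a log2 fold change of -0.03 to -0.21, while with upper quartile scaling 51.1% of the calls were higher.

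With the replicate number as a replicate block, Igf2r was at 0.49 (adjusted p = 0.058), and 1838 genes were called in place of 2281. Over all tested genes, same-numbered libraries did not deviate together (correlations -0.43, 0.06, 0.05, 0.06 and 0.16 for numbers 1 to 5). With 5 libraries a group this cannot exclude that the numbers stand for something shared, of which the labels say nothing. With the block Irs1 was called (0.76) and Ghr, Insr, Ptpn1 and Timp2 were not (-0.67, 0.49, 0.43 and -0.80).

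Depth limits Igf2, Igf1r and Igf2bp2 most, with 31, 237 and 127 counts over 10 libraries, and countable bases limit Igf2 and Igfbp7. In DESeq2, Igf2 was at -2.25 (adjusted p = 0.075).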

Other observations

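Among the genes between growth hormone and Igf1, Cish, a feedback inhibitor of growth hormone signaling chosen here after its values were seen, spread more widely than any IGF gene tested. It was at 129, 345, 155, 1.77 and 3.37 CPM in CTRL 1 to 5 and at 305, 353, 143, 33.4 and 63.7 CPM in ASO 1 to 5. The 2 lowest libraries were both CTRL, and the groups overlapped (log2 fold change 0.50 ± 0.97, adjusted p = 0.73). Socs3, another such inhibitor, was at 21.96 ± 18.98 CPM in CTRL and 29.1 ± 19.1 CPM with the ASO (adjusted p = 0.65).

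The fetal relatives of Igf2bp2 were scarcely counted, with 0.1 counts per library on average for Igf2bp1 and 1.9 for Igf2bp3.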
